A study of Mus musculus with 6 samples.

Results

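The 33 genes described here are macrophage and myeloid genes, chosen by name from markers of tissue macrophages and from genes used by myeloid cells in general. All 33 had at least 1 read among the 21730 genes with a read in interscapular brown adipose tissue, a fat depot of the upper back that burns fuel to make heat. Poly(A) RNA of 6 male wild-type C57BL/6N mice aged 20 weeks was sequenced as long direct cDNA reads, without PCR, and the reads were counted per annotated transcript. The 3 cold mice (mice 4, 11 and 15) had been kept alone in a cage at 4 °C for 24 h, and the 3 control mice (mice 2, 9 and 14) were kept at 22 to 24 °C. The labels do not say whether the control mice were also housed alone, so single housing and cold cannot be told apart. One sentence of the extraction protocol names another fat depot, while every tissue field names the interscapular brown depot. All 9 brown adipocyte markers on a list had reads, and Ucp1, the uncoupling protein that makes brown fat produce heat, stood between 9700 and 13890 CPM (a gene's reads as a share of the scaled total of its library) in the 6 libraries.

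Macrophages are phagocytes that reside in every tissue, where they engulf dying cells and debris, present or release immune signals and, in fat, take up lipid. They depend on the growth factor receptor Csf1r, carry Fc receptors and integrins on their surface, and are the main source of the complement component C1q. In brown fat they lie among the adipocytes, vessels and sympathetic nerve fibres that respond to cold. The RNA came from whole tissue, so fewer macrophages and less RNA per macrophage cannot be told apart.

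The libraries held 1657985 to 2238056 reads, at which 3 reads correspond to 1.34 to 1.81 CPM of all reads. The genes held 8678 reads over the 6 libraries, of which Apoe, a lipid carrier that adipocytes, liver cells and macrophages make, took 6615 (76.2%). The other 32 genes shared 2063 reads, with a median of 45.0 reads per gene over all 33, and 8 genes had fewer than 20. Only 12 of the 33 passed the low-count filter of the test, which asks for about 5.04 CPM in at least 3 of the 6 libraries. These were Apoe, Lyz2, C1qa, C1qb, C1qc, Pf4, Lgals3, F13a1, Cyba, Csf1r, Fcer1g and Tyrobp. The remaining 21 had 3 to 63 reads each. Most of the genes are therefore known from small counts, as the plot of reads per gene shows.

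**Figure D1:**
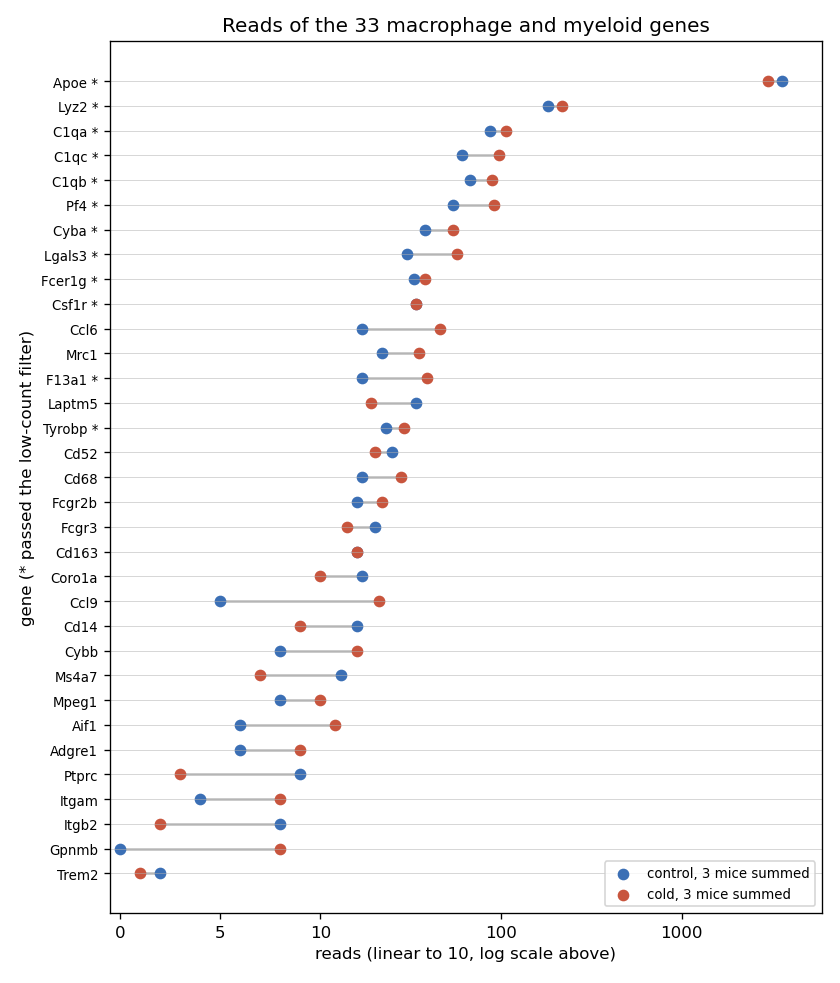
Reads of each of the 33 genes, summed over 3 control mice (blue) and 3 cold mice (red). The axis is linear up to 10 reads and logarithmic above, and an asterisk marks the 12 genes that passed the low-count filter. Apoe had 3619 control and 2996 cold reads, while Trem2 had 2 and 1.

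Among the 12 tested genes, Apoe was the 1 gene called lower in the cold and none was called higher (edgeR's quasi-likelihood test, Benjamini-Hochberg adjusted p under 0.05 over 8684 tested genes). Over all tested genes 9.75% were called higher and 9.77% lower, 19.5% in all. Among tested genes with at most 200 reads, as 10 of these 12 had, 9.73% were called. An unadjusted p under 0.05 was reached by 5 of the 12 genes, namely C1qc, Pf4, Lgals3 and F13a1, higher in the cold, and Apoe, lower, against 31.4% of all tested genes. DESeq2 called none of the 12, and gave 3 an unadjusted p under 0.05. The mean was higher in the cold in 11 of the 12, with a median log2 fold change of 0.38 against 0.001 over all tested genes, of which 50% had a positive fold change. F13a1 reached the filter's minimum in no control mouse and in 3 cold mice, and 4 others (Pf4, Lgals3, Cyba and Fcer1g) reached it in all cold mice but not in all control mice. A gene that passes through the cold group alone, as F13a1 did, must be higher there. For the 4 others the filter can favour a higher cold mean but does not force it. The count of 11 and the median are therefore given as a description only. Among the 21 genes that were not tested, the mean was higher in the cold in 12 and lower in 9, and 47.2% of all genes left out by the filter with 3 to 63 reads had the higher mean in the cold.

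**Figure D2:**
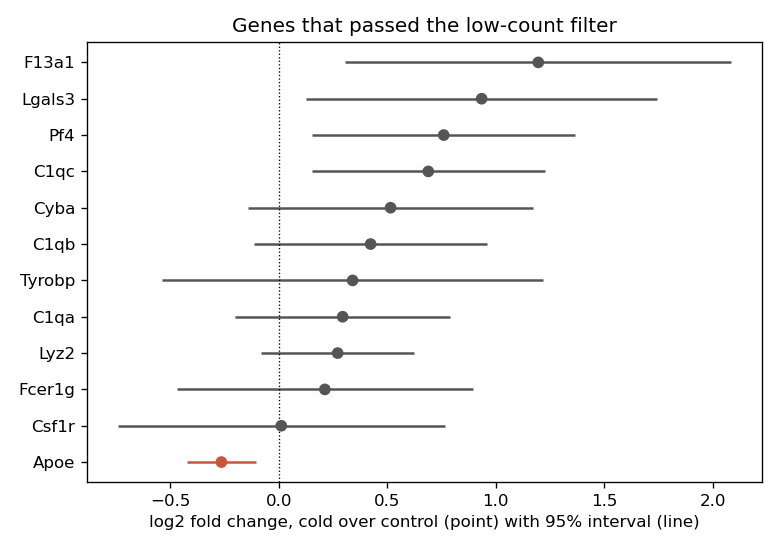
Log2 fold change, cold over control, of the 12 tested genes (points) with the 95% interval (lines). The interval of Apoe, in red, lies below 0 and its adjusted p was 0.016, while F13a1, Lgals3, Pf4 and C1qc have intervals above 0 and adjusted p-values of 0.054 to 0.101.

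Apoe stood at 664.8, 568.0 and 631.4 CPM in control mice 2, 9 and 14 and at 536.7, 513.0 and 501.3 CPM in cold mice 4, 11 and 15. Every cold mouse was below every control mouse. The mean fell from 621.4 ± 49.2 to 517.0 ± 18.1 CPM (SD, n = 3), a log2 fold change of -0.27 (SE 0.08, 95% interval -0.42 to -0.11, adjusted p = 0.016), or 1.20-fold lower. Over the 16 alternative settings the log2 fold change stayed negative, between -0.33 and -0.19, but 10 of the 16 kept the call. The adjusted p was 0.088 with DESeq2, 0.058 with library sizes in place of TMM scaling and 0.196 with the level of skeletal muscle markers as a covariate. It was 0.108 without control mouse 2, 0.071 without control mouse 14 and 0.054 without cold mouse 11. Apoe is also made by adipocytes, so its reads in whole brown fat cannot be assigned to macrophages alone.

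C1q is the recognition molecule of the classical complement pathway, built from 3 chains encoded by the neighbouring genes C1qa, C1qb and C1qc on chromosome 4 (positions 136880129 to 136898803 in GRCm38), and it tags debris and dying cells for uptake. C1qa had 33, 33 and 21 reads in control mice 2, 9 and 14 and 38, 31 and 37 in cold mice 4, 11 and 15. The C1qb counts were 15, 33 and 19 in the controls and 31, 28 and 30 in the cold. For C1qc they were 26, 21 and 14 against 31, 37 and 30. In CPM the ranges of the groups overlapped for each chain, for C1qc only in that control mouse 2 (15.04 CPM) lay above cold mouse 4 (14.98 CPM), and control mouse 14 was lowest or next to lowest for all of them. The means were 15.2 ± 4.9 and 18.5 ± 3.0 CPM for C1qa, 11.5 ± 4.7 and 15.5 ± 1.8 CPM for C1qb, and 10.8 ± 4.3 and 17.0 ± 1.8 CPM for C1qc (SD, n = 3, control then cold). The corresponding log2 fold changes were 0.29 (adjusted p = 0.439), 0.42 (adjusted p = 0.286) and 0.69 (SE 0.26, 95% interval 0.15 to 1.23, adjusted p = 0.066). No chain was called, and the intervals allowed changes from 0.87-fold to 1.73-fold for C1qa, from 0.92-fold to 1.95-fold for C1qb and from 1.11-fold to 2.34-fold for C1qc. C1qc would have been called with library sizes alone (adjusted p = 0.046), with flow cell 1 alone (0.046) or without control mouse 2 (0.023), whereas without control mouse 14 its adjusted p was 0.348. For C1qb the flow cells gave opposite signs, -0.07 from the first and 1.15 from the second (adjusted p = 0.028). The 3 chains took 40.5%, 31.2% and 28.4% of the C1q reads in the controls and 36.2%, 30.4% and 33.4% in the cold, from mRNAs of 1040, 1088 and 1203 nt, and each chain's reads were all counted on 1 transcript. Summed over the chains, the level was 25.1 to 44.4 CPM in the control mice and 48.1 to 56.5 CPM in the cold mice. This sum was not tested.

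The promoter of C1qb is shown because myeloid promoters are bound by the transcription factor PU.1, whose sites often hold the letters GAGGAA. The 150 bases before its RefSeq start (GRCm38.p6, minus strand, chr4:136886201-136886350) read as follows, with the match to GAGGAA in capitals.
C1qb: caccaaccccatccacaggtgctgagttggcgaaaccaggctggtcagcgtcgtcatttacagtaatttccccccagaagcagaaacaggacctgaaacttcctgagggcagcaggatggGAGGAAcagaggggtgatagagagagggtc
Of the 33 genes, 26 matched an entry of the RefSeq promoter table. On either strand of the 250 bases before the start, the letters GAGGAA, read as TTCCTC where they lie on the opposite strand, were present in 13 of the 26 (50%) and in 25.9% of 27025 genes. The longer word GAGGAAGT (ACTTCCTC), which contains the shorter one, was present in 2 of the 26 (C1qc and Pf4, 7.7%) and in 2.8% of all genes. A match describes these letters in the window and not a bound site.

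The chemokines among the genes are Ccl6 and Ccl9, neighbours on chromosome 11 that encode CC chemokines attracting myeloid cells through the receptor Ccr1, and Pf4, which encodes platelet factor 4 (Cxcl4) and is expressed by platelets and by resident macrophages. Ccl6 had 4, 7 and 6 reads in control mice 2, 9 and 14 and 8, 16 and 22 in cold mice 4, 11 and 15. Ccl9 had 0, 3 and 2 reads in the controls and 7 in each cold mouse. For both genes every cold mouse was above every control mouse. Neither passed the low-count filter, and the ratio of library-scaled reads, cold over control, was 2.73 for Ccl6 (95% counting interval 1.54 to 5.08) and 4.24 for Ccl9 (1.56 to 14.4), intervals that cover counting error only. Pf4 had 16, 27 and 11 reads in the controls and 37, 24 and 30 in the cold, so that control mouse 9 lay above cold mouse 11. The Pf4 mean was 9.39 ± 4.33 CPM in the controls and 15.8 ± 3.3 CPM in the cold (SD, n = 3), a log2 fold change of 0.76 (SE 0.29, adjusted p = 0.073) that was not called. Without control mouse 14 it was 0.43 (adjusted p = 0.362) and without control mouse 9 it was 1.16 (adjusted p = 0.014). Without the low-count filter, flow cell 1 alone gave 0.26 and flow cell 2 alone 1.67 for Pf4. Together the chemokines summed to 8.84 to 18.9 CPM in the controls and 23.5 to 34.4 CPM in the cold, a sum that was not tested.

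The upstream sequences of these genes are shown beside C1qb because all had more reads in the cold. They are the 150 bases before the RefSeq start in GRCm38.p6, for Pf4 on the plus strand at chr5:90772285-90772434, for Ccl6 on the minus strand at chr11:83593088-83593237 and for Ccl9 on the minus strand at chr11:83578637-83578786. These genes and C1qb were picked for display after their counts and matches had been seen.
Pf4: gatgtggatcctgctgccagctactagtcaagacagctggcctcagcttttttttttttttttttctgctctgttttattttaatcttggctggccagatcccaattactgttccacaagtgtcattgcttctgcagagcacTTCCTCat
Ccl6: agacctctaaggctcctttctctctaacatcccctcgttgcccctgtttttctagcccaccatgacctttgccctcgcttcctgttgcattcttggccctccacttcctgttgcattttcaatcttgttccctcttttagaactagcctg
Ccl9: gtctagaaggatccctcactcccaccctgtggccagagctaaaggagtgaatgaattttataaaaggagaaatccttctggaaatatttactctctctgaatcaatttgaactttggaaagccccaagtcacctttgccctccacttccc
Capitals again mark the PU.1 letters, read here on the opposite strand as TTCCTC in Pf4, and neither Ccl6 nor Ccl9 held either word in these bases.

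When the low-count filter was left out, 7 of the 33 genes were called among 21730 genes, 6 higher and 1 lower. Without the filter 8.47% of all genes were called, 4.45% higher and 4.02% lower, and of the genes that the filter leaves out 1.71% were called. The log2 fold changes of the 6 were 1.44 for Ccl6 (SE 0.39, adjusted p = 0.0051), 2.01 for Ccl9 (SE 0.65, adjusted p = 0.026), 0.77 for Pf4 (adjusted p = 0.036), 0.94 for Lgals3 (adjusted p = 0.048) and 1.20 for F13a1 (adjusted p = 0.042), besides Gpnmb, described below. Apoe was again the gene called lower (adjusted p = 0.018). Further changes, chosen after seeing the data, moved these calls, although with library sizes in place of TMM 7 were called again, with C1qc in place of Apoe. Without the filter, none was called by DESeq2 (24 of the 33 had an adjusted p, and 4 an unadjusted p under 0.05), none with the skeletal muscle covariate, and none without control mouse 14 or without cold mouse 15. Leaving out control mouse 2 left C1qc alone, and the older variant of the quasi-likelihood fit called 3, Ccl6, Ccl9 and Apoe. All 13 fits without the filter gave a positive fold change for Ccl6 and for Ccl9 (log2 0.65 to 1.81 and 1.42 to 2.89).

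**Figure D3:**
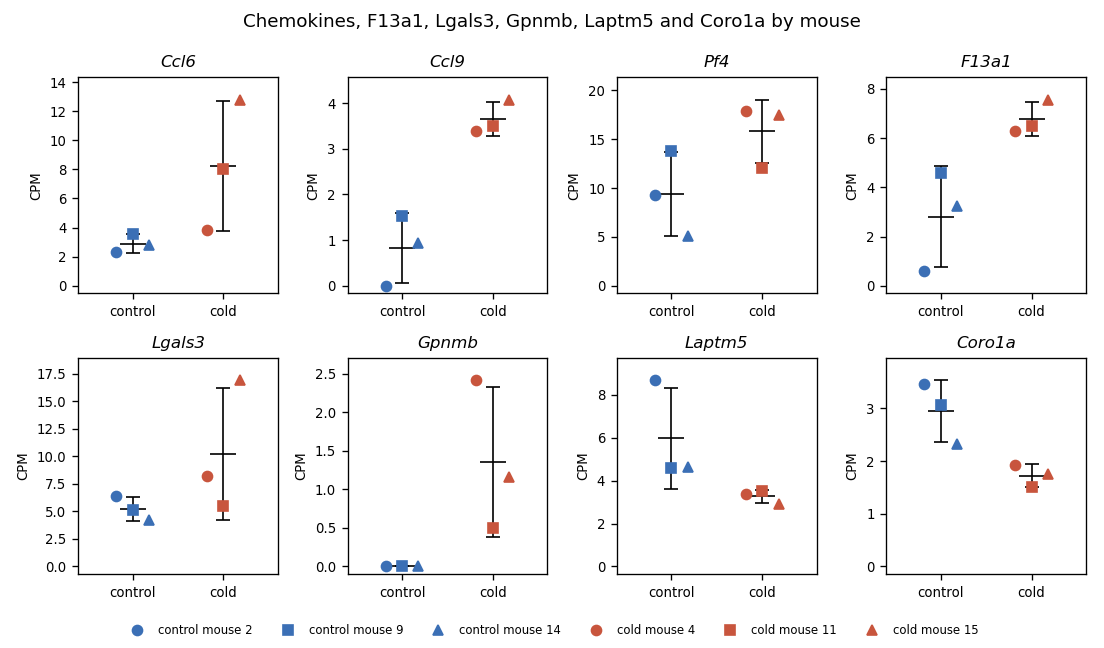
CPM of Ccl6, Ccl9, Pf4, F13a1, Lgals3, Gpnmb, Laptm5 and Coro1a in each mouse (symbols), with the mean and SD of the 3 mice of a group (bars). Every cold mouse lies above every control mouse for Ccl6, Ccl9, F13a1 and Gpnmb and below for Laptm5 and Coro1a, while the groups overlap for Pf4 and Lgals3.

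F13a1 encodes the A chain of coagulation factor XIII, which crosslinks fibrin and is made by resident macrophages and megakaryocytes. It had 1, 9 and 7 reads in control mice 2, 9 and 14 and 13 in each cold mouse, so that the groups did not overlap. The level was 2.81 ± 2.04 CPM in the controls and 6.79 ± 0.69 CPM in the cold (SD, n = 3), a log2 fold change of 1.20 (SE 0.43, 95% interval 0.31 to 2.09), and the adjusted p was 0.054. The older variant of the same fit gave 0.0499, and the variant used throughout was settled on after both had been seen, so F13a1 sits on the threshold. The adjusted p was 0.223 without control mouse 2, whose single read is the low value, and 0.217 with DESeq2. Without the filter, flow cell 1 alone gave a log2 fold change of 2.25 and flow cell 2 alone -0.16.

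Lgals3 encodes galectin-3, a sugar-binding protein of macrophages that fibroblasts and other cells also make. Its counts were 11, 10 and 9 in the controls and 17, 11 and 29 in the cold, with the highest value in cold mouse 15. The means were 5.22 ± 1.09 and 10.2 ± 5.9 CPM (SD, n = 3), a log2 fold change of 0.94 (SE 0.39, adjusted p = 0.101), and without cold mouse 15 it was 0.42 (adjusted p = 0.542). Gpnmb, a membrane glycoprotein of lysosome-rich, lipid-laden macrophages, was at 0 reads in all 3 control mice and had 5, 1 and 2 reads in cold mice 4, 11 and 15. The cold mean of 1.36 CPM was itself near the level of 3 reads per library, so no fold is given. Without the low-count filter it was called (adjusted p = 0.039), but not without cold mouse 4 (0.322). Lyz2, the lysozyme of macrophages and granulocytes, had 60, 60 and 62 reads in the controls and 69, 64 and 84 in the cold. Its log2 fold change was 0.27 (SE 0.17, 95% interval -0.08 to 0.62, adjusted p = 0.298), and the groups overlapped at 28.9 to 34.7 against 32.1 to 48.9 CPM. Lyz2 shares 1264 nt at 95.8% identity with Lyz1, to which 13 reads were assigned against 399 for Lyz2. Mpeg1, the pore-forming perforin-2 of macrophages, had 8 control and 10 cold reads.

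**Figure D4:**
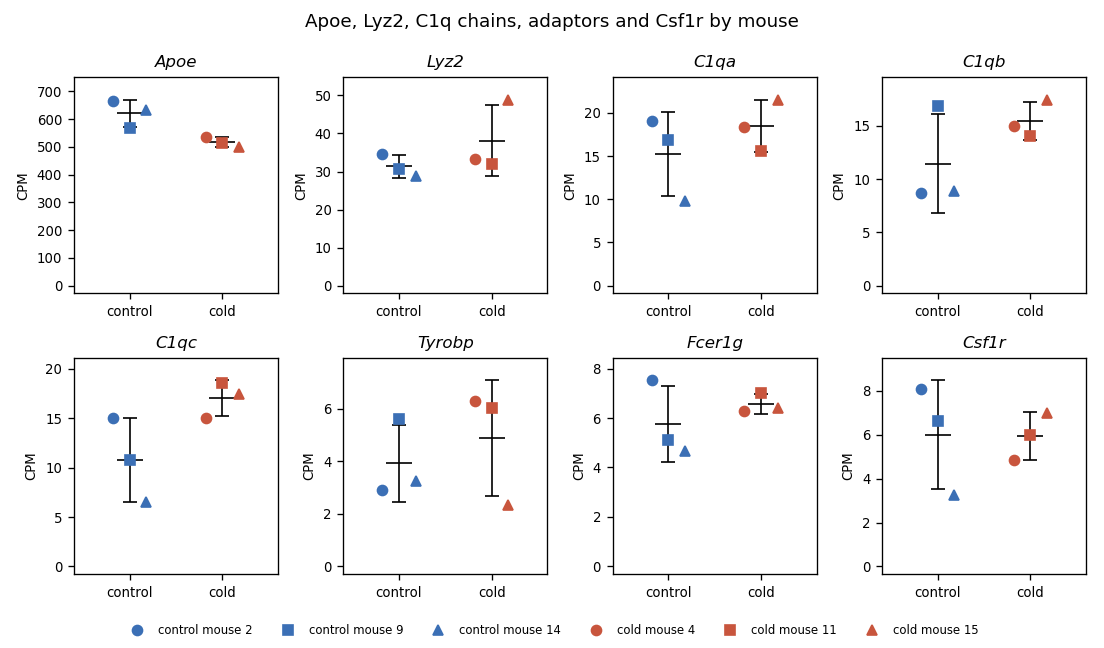
CPM of Apoe, Lyz2, C1qa, C1qb, C1qc, Tyrobp, Fcer1g and Csf1r in each mouse (symbols), with the mean and SD of the 3 mice of a group (bars). Only for Apoe do the groups not overlap, with 501.3 to 536.7 CPM in the cold and 568.0 to 664.8 CPM in the controls.

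Among the 7 receptors and surface markers, 1 was tested and 4 had the higher mean in the cold. Csf1r, the receptor for the growth factors on which macrophages depend, had 14, 13 and 7 reads in control mice 2, 9 and 14 and 10, 12 and 12 in cold mice 4, 11 and 15. Its mean was 6.00 ± 2.48 CPM in the controls and 5.94 ± 1.08 CPM in the cold (SD, n = 3), with a log2 fold change of 0.01, a 95% interval of -0.74 to 0.77 and an adjusted p of 0.984. That interval runs from 0.60-fold to 1.70-fold, so changes within that range are not excluded. Csf1r shares 873 exonic nt with Hmgxb3 on the opposite strand, and whether strand was used in counting is not given in the sources used here, so its reads may include some of that gene. Of the 6 receptors and markers that were not tested, Adgre1 (the F4/80 antigen) had 6 control and 9 cold reads, Mrc1 (the mannose receptor CD206) had 22 and 35, and Cd68, a lysosomal glycoprotein, had 17 and 28. Cd163, the haemoglobin scavenger receptor, had 16 and 16, of which 10 control reads were from mouse 14. Cd14, a co-receptor for bacterial lipopolysaccharide, had 16 and 9, and Ms4a7, a membrane protein of macrophages, had 13 and 7. All of them overlapped between the groups. Summed over the 7 genes, the level was 17.7 to 24.3 CPM in the controls and 18.4 to 27.1 CPM in the cold.

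The Fc receptors bind antibody-coated particles and signal through the adaptor Fcer1g, and Trem2, a lipid-sensing receptor, signals through the adaptor Tyrobp. Fcer1g had 13, 10 and 10 reads in the controls and 13, 14 and 11 in the cold, a log2 fold change of 0.21 (95% interval -0.47 to 0.90, adjusted p = 0.719). Tyrobp had 5, 11 and 7 reads in the controls and 13, 12 and 4 in the cold, a log2 fold change of 0.34 (95% interval -0.54 to 1.22, adjusted p = 0.643). The groups overlapped for both adaptors, and cold mouse 15 had the lowest Tyrobp level of all 6. The activating receptor Fcgr3 had 20 control and 14 cold reads and the inhibitory receptor Fcgr2b had 16 and 22. These receptors share 509 nt at 96.5% identity, so reads can have been divided between them in the counting. Trem2 had 3 reads in all 6 libraries, all on a transcript annotated as a retained intron, and no level can be compared.

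The integrins and leukocyte surface or cytoskeletal genes had 10 to 53 reads per gene, and none was tested. Laptm5, a lysosomal protein of blood cells, had 15, 9 and 10 reads in control mice 2, 9 and 14 and 7, 7 and 5 in cold mice 4, 11 and 15. Coro1a, the actin-binding coronin of leukocytes, had 6, 6 and 5 against 4, 3 and 3. For both, every cold mouse was below every control mouse, but the counting intervals of the cold to control ratio reached 1.02 for Laptm5 (ratio 0.56) and 1.37 for Coro1a (ratio 0.59). Without the filter their adjusted p-values were 0.286 and 0.593. Ptprc, which encodes the pan-leukocyte phosphatase CD45, had 9 control and 3 cold reads. The integrin chains Itgam (CD11b) and Itgb2 (CD18), which pair into complement receptor 3, had 4 and 8 and 8 and 2 reads, opposite in direction. Itgam shares 3450 of its 5024 exonic nt with Gm49368 on the same strand, to which 0 reads were assigned. Aif1 (Iba1), an actin-binding protein of macrophages, had 6 and 12 reads, and Cd52, a small surface glycoprotein of leukocytes, had 25 and 20. Only Aif1 and Itgam of these 7 had the higher mean in the cold. Their summed level was 13.8 to 26.0 CPM in the controls and 11.5 to 14.0 CPM in the cold, with control mouse 2 highest.

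The phagocyte NADPH oxidase makes superoxide from a membrane core of Cybb (gp91phox) and Cyba (p22phox). Cyba had 13, 17 and 8 reads in the controls and 17, 19 and 18 in the cold, a mean of 6.64 ± 2.59 against 9.40 ± 1.14 CPM (SD, n = 3) and a log2 fold change of 0.52 (95% interval -0.14 to 1.17, adjusted p = 0.289). In CPM, cold mouse 4 lay below control mouse 9. Cybb had 5, 3 and 0 reads in the controls and 5, 2 and 9 in the cold, of which cold mouse 15 held the most. Of the genes for partner proteins that assemble with this core, 1 of 6 was tested, and neither edgeR nor DESeq2 called it or gave it an unadjusted p under 0.05.

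In CPM, groups that did not overlap were seen in 2 of the 12 tested genes (F13a1 above and Apoe below), against 35.1% of all tested genes. F13a1 was tested only because all 3 cold mice reached the filter's minimum, and no control mouse did. Apart from TMM scaling, its separation was thus set by how it passed the filter and carries no weight here. Among the 21 genes that were not tested there were 5, with Ccl6, Ccl9 and Gpnmb above and Laptm5 and Coro1a below in the cold, against 13.3% of all genes left out by the filter with 3 to 63 reads. Of those genes 6.06% lay above and 7.28% below.

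The highest and lowest values fell mostly on 3 mice. Among the 32 genes other than Apoe, cold mouse 15 was highest in 12 and control mouse 2 in 9, while control mouse 14 was lowest in 12 and control mouse 2 in 9. A tie at 0 reads was credited to 1 of the tied mice. Control mouse 2 was credited in this way for Gpnmb, at 0 in all 3 control mice, and for Trem2, at 0 also in cold mice 4 and 15. The summed level of the 32 genes was 176.5, 169.9 and 119.6 CPM in control mice 2, 9 and 14 and 186.0, 186.3 and 239.3 CPM in cold mice 4, 11 and 15. With Apoe the direction was the other way, and the groups overlapped. The 33 genes summed to 737.9 to 841.3 CPM in the controls (mean 776.7) and 699.3 to 740.6 CPM in the cold (mean 720.9). All 12 skeletal muscle markers on a list had reads, and their summed level was 182.8, 477.1 and 701.2 CPM in the control mice and 324.2, 1381 and 3365 CPM in the cold mice. Cold mouse 15 was thus highest of the 6 both in muscle markers and in the summed level of the 32 genes without Apoe. Among the control mice the order was reversed, with mouse 14 highest in muscle markers and lowest in the sum of the 32 genes. The part of the muscle markers in these results was not tested beyond the covariate fits given above. The 12 endothelial markers summed to 448.6 to 450.7 CPM in the controls and 543.5 to 557.6 CPM in the cold, and the part of endothelium in the results was not tested. Of these markers 11 were tested, 3 rose and 1 fell, where 9.75% of all tested genes were called higher and 9.77% lower. The receptors Kdr and Eng rose 1.54-fold and 1.51-fold (adjusted p = 0.00031 and 0.00033), calls that flow cell 2 alone did not give (adjusted p = 0.172 and 0.059). The adhesion molecule Esam rose 1.49-fold (adjusted p = 0.016, kept in 11 of 16 alternatives), and the receptor Tek fell 1.58-fold (adjusted p = 0.048, kept in 3 of 15). Neither the Esam nor the Tek call held with DESeq2.

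The other cell types of the tissue are given by their marker lists. Their calls are to be read against the 9.75% of all tested genes called higher and the 9.77% called lower. Fibroblast and preadipocyte markers summed to 351.3 to 410.8 CPM in the controls and 350.8 to 411.7 CPM in the cold, and of 9 tested 1 rose and 3 fell. Ly6a, a surface antigen of progenitor and endothelial cells, rose 1.51-fold (adjusted p = 0.00047). The collagen genes Col3a1 and Col1a1 each fell 1.64-fold (adjusted p = 0.00028 and 0.013) and Col1a2 fell 1.47-fold (adjusted p = 0.022), of which Col3a1 was called in all 16 alternatives, Col1a1 in 12 and Col1a2 in 8. Pericyte and smooth muscle markers summed to 268.5 to 300.4 CPM against 218.9 to 239.1 CPM, and of 8 tested Rgs5, a marker of pericytes, was the 1 called (1.64-fold lower, adjusted p = 4.594e-05). Schwann cell markers (128.4 to 165.3 against 113.7 to 140.4 CPM) and erythroid markers (1575 to 2915 against 1910 to 2842 CPM) had 4 and 5 tested genes, none called or with an unadjusted p under 0.05 by edgeR or DESeq2. Of the 9 brown adipocyte markers, all tested, the fatty acid binding protein Fabp4 and Ucp1 rose (1.43-fold and 1.29-fold, adjusted p = 2.296e-06 and 0.00014) and the hormone gene Adipoq fell 1.46-fold (adjusted p = 4.578e-05). None of the 11 tested skeletal muscle markers was called by edgeR or DESeq2, and 0 and 4 had an unadjusted p under 0.05. The part of these cell types in the myeloid values was not tested.

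**Figure D5:**
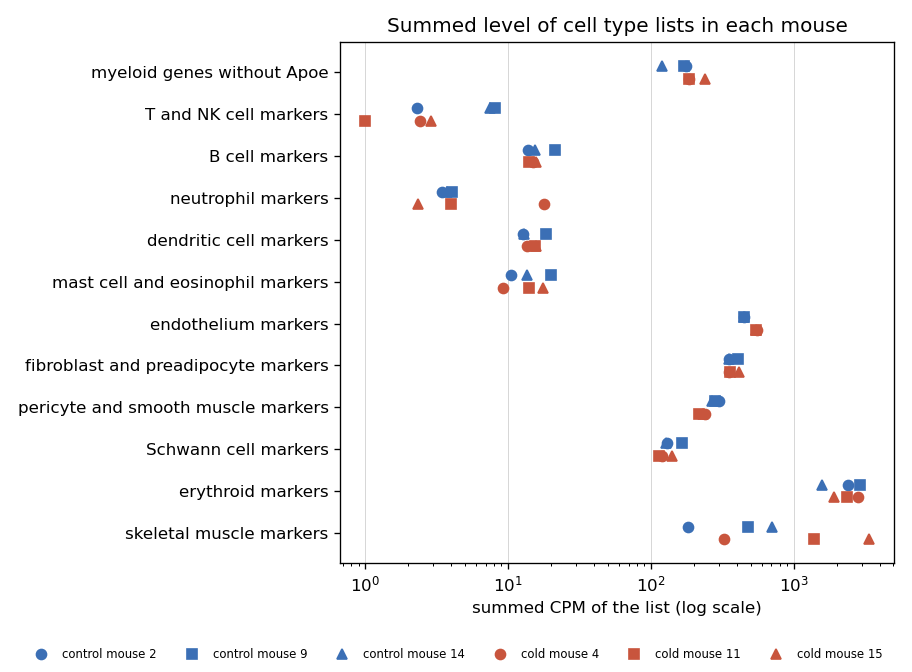
Summed CPM (log scale) of the 32 myeloid genes other than Apoe and of marker lists of other cell types, with a symbol for each mouse and control mice in blue. The myeloid sum lies at 119.6 to 176.5 CPM in the controls and 186.0 to 239.3 CPM in the cold, and skeletal muscle markers spread most, from 182.8 to 3365 CPM. The myeloid sum was not tested, and the C1q chains and Lyz2 hold 508 and 399 of its 2063 reads. Within it, the integrin and leukocyte group had the lower mean in the cold (18.1 CPM in the controls, 12.8 CPM in the cold).

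Marker lists of other blood cells, which share some of these genes, held from 48 reads (T and NK cells) to 185 reads (B cells). Among the 33 genes, the Fc receptor and adaptor group held 198 reads and the integrin and leukocyte group 177. Which cells carried the shared genes was not tested. The neutrophil list had 71 reads in all, with Ly6g, Elane, Mpo, Ngp and Mmp8 at 0 in every library, and 37 of the 71 reads were from cold mouse 4. Its summed level was 3.47 to 4.08 CPM in the controls and 2.33 to 17.9 CPM in the cold. T and NK cell markers had 48 reads in all (2.31 to 8.17 CPM against 1.00 to 2.91 CPM). B cell markers summed to 13.9 to 21.4 against 14.0 to 15.7 CPM, and dendritic cell markers to 12.7 to 18.4 against 13.5 to 15.7 CPM. No gene of the neutrophil or of the T and NK cell list passed the low-count filter, so these lists have no test. Of the dendritic cell list 2 genes were tested and of the B cell list 1, and none of these 3 was called or had an unadjusted p under 0.05 by edgeR or DESeq2. On the list for mast cells and eosinophils 7 of 13 genes had no read, and Kit, a growth factor receptor of mast cells and of other cell types, fell from 10, 26 and 18 reads to 4, 0 and 1 (log2 fold change -3.33, SE 0.57, adjusted p = 0.00022). Kit was the 1 tested gene of that list, and it reached the filter's minimum in 3 control mice and in no cold mouse. The other genes of the list that had reads, named after their values were seen, were not tested. Hdc, the histidine decarboxylase that makes histamine, had 6, 5 and 10 reads in the controls and 9, 18 and 20 in the cold. The mast cell protease Cma1 had 0, 1 and 1 against 3, 1 and 3 reads, and Tpsb2 had 0 in each control mouse against 1, 4 and 3. Cpa3 had 1, 6 and 0 against 2, 4 and 1, and Mcpt4 had 1, 1 and 0 against 0, 1 and 2.

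Some other lists of myeloid genes held members that passed the test, to be read against the 19.5% of all tested genes that were called. Of 29 further macrophage surface receptors, 27 had a read, 4 were tested and 1 was called. That gene was Pirb, an inhibitory receptor for MHC class I molecules, with 1, 8 and 3 reads in control mice 2, 9 and 14 and 14, 19 and 18 in cold mice 4, 11 and 15. The Pirb groups did not overlap, and the log2 fold change was 2.07 (SE 0.44, adjusted p = 0.0018), or 4.20-fold. It belongs to a family of similar receptor genes, between which reads can have been divided. Pirb was called in all 13 alternative settings in which it was tested. It reached the filter's minimum in no control mouse and in 3 cold mice, so that it was tested only through the group where it is high.

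In the complement pathway beyond C1q, 6 of 16 genes were tested and 1 was called. C3, the central component that C1q activation cleaves, rose from 131.9, 104.6 and 123.3 CPM in the controls to 162.3, 156.8 and 162.5 CPM in the cold (1.34-fold, log2 SE 0.10, adjusted p = 0.0036), and it was called in all 16 alternative settings. Adipocytes and other cells also make C3. Of 21 further chemokines and receptors, 5 were tested, 2 rose and 1 fell (1 and 1 by DESeq2), where 19.5% of all tested genes were called. Cxcl14, a chemokine that brown adipocytes also secrete, rose from 22, 32 and 37 to 84, 63 and 69 reads (2.40-fold, adjusted p = 3.095e-05). Cxcl9, which interferon gamma induces and which attracts T cells, fell from 25, 31 and 16 to 7, 3 and 6 reads (4.39-fold lower, adjusted p = 0.00039). These changes were called in all 16 and all 14 alternative settings that tested the gene. Cx3cl1, the ligand of a receptor on monocytes and macrophages, rose 2.59-fold from 7, 3 and 3 to 13, 10 and 11 reads (adjusted p = 0.033), and 6 of 13 alternatives kept that call. That call was lost with DESeq2, with the muscle covariate and without control mouse 9 or 14 or any one of the cold mice (adjusted p up to 0.195). Cx3cl1 passed the filter through the cold mice alone and Cxcl9 through the control mice alone.

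Of 12 genes of classical activation, the state induced by interferon and bacterial products, 2 were tested and Cxcl9, listed here as well, was the 1 called. Nos2, Tnf, Il1b and Il6 belong to this list, and Il12b and Ptgs2 had no read. Of 13 genes of alternative activation, the state induced by interleukin-4, 5 were tested and none was called by edgeR or DESeq2 (2 and 0 with an unadjusted p under 0.05), and Arg1, Chil3, Il10 and Pdcd1lg2 had no read. The median log2 fold change of its tested genes was 0.02. Of 16 genes reported in lipid-loaded macrophages, 11 were tested, 5 rose and 2 fell (4 and 1 by DESeq2), where 9.75% of all tested genes were called higher and 9.77% lower, and the median log2 fold change was 0.35. The cathepsin Ctsz rose from 143.5, 130.6 and 147.0 CPM in the controls to 537.2, 493.4 and 617.2 CPM in the cold (3.91-fold, log2 SE 0.09, adjusted p = 3.054e-12). The cholesterol exporter Abcg1 rose 2.93-fold, from 11, 7 and 12 to 36, 31 and 21 reads (adjusted p = 0.00042), and the tetraspanin Cd63 rose 1.6-fold (adjusted p = 0.0016). Npc2, which carries cholesterol out of lysosomes, fell 1.71-fold (adjusted p = 1.112e-06). All 4 were called in every alternative setting that tested them, 15 for Abcg1 and 16 for the others. These lysosomal and cholesterol genes are expressed by most cell types, adipocytes included. On the same list, Ctss was tested and had 8, 13 and 11 reads in the controls and 17, 16 and 16 in the cold. Spp1, Itgax and Mmp12 had 6, 3 and 16 reads in all and were not tested. Ctss, Spp1, Itgax and Mmp12 were named after their values were seen, and the part of macrophages in the changes of this list was not tested.

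On the list of growth factors for the CSF1 receptor and related signals, 2 of 6 genes were tested, and Csf2 and Csf3 had no read. Of 14 cell division genes 1 was tested, and of 3 genes of nerve-associated macrophages 1 was tested, while the noradrenaline transporter Slc6a2 had no read. No gene of these lists was called by edgeR or DESeq2, and the 1 tested gene of the nerve-associated list had an unadjusted p under 0.05 with edgeR alone.

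The long reads fell on 81 annotated transcripts of the 33 genes, of which 61 were protein-coding and held 98.4% of the reads (96.3% without Apoe). Retained-intron transcripts held 2.8% of the reads without Apoe, 57 reads. In 11 genes all reads were on 1 transcript, among them the C1q chains, Lyz2, Ccl9, Laptm5 and Gpnmb. Of the 12 transcripts that were tested, 1 was called, against 16.3% of 11699 transcripts over all genes. It was Apoe-206, the most counted Apoe transcript, with 716, 717 and 860 reads in the controls and 675, 634 and 541 in the cold (log2 fold change -0.31, SE 0.08, adjusted p = 0.0075). Apoe-201 was second with 892 control and 780 cold reads (log2 fold change -0.20, adjusted p = 0.217). Apoe-206 took 63.4% of Apoe reads in the controls and 61.7% in the cold, and Apoe-201 took 24.6% and 26.0%. Apoe was the only one of the 33 genes with at least 2 tested transcripts, and its transcript usage was not called (edgeR's diffSpliceDGE with Simes p, unadjusted p = 0.881, adjusted p = 1.0), against 0.195% of 2568 genes called. Lgals3 had 20.0% of its reads on Lgals3-201 in the controls and 38.6% in the cold, but 15 of the 22 cold reads were from mouse 15.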

How the data were processed

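The deposited tables give, for each of the 2 flow cells of a library, a whole-number read count per transcript, which the authors made with minimap2 on GRCm38, per the submitters' processing notes. For the minimap2 version, the annotation, the use of strand and the handling of ambiguous reads, the entry is: not given in the sources used here. Transcripts were matched to GENCODE M21, and the 172 of 59543 that did not match (0.084% of reads) were left out. Counts were summed over both flow cells and over the transcripts of a gene, so n is the number of mice.

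All 6 libraries were fitted with edgeR 4.0.16 in R 4.3.3 (TMM, filterByExpr with minimum count 10, robust quasi-likelihood fit without the legacy option, no covariate, Benjamini-Hochberg at 0.05). Where no tool is named beside an adjusted p, it is edgeR's. CPM are scaled by TMM over the tested genes. DESeq2 1.42.0 was an alternative. Transcript usage was tested with diffSpliceDGE, and sequence likeness was computed with minimap2 2.31. Scripts were tested on simulated data.

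The named genes are all 33, plus, for each other list in the text, up to 4 called genes by size of fold change. Other genes of those lists that are named were chosen after their values were seen. One list is not reported here. The genes, lists and alternatives were chosen with earlier results of these data known.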

Additional observations from a re-analysis of the deposited data

How the results depend on the processing

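Over all genes, the 1695 calls became 931 with DESeq2 (492 higher, 439 lower) and 837 with flow cell 2 alone (429 higher, 408 lower), and with the skeletal muscle covariate 539 genes were lower. With library sizes in place of TMM, 1061 genes were higher and 610 lower, against 847 and 848. Of the 12 myeloid genes tested, 1 was called as reported, and 0 with DESeq2 and with the muscle covariate. Library sizes alone called 2 of 12 (C1qc and F13a1), as did the legacy fit (Apoe and F13a1). Flow cell 1 called 2 of 7 tested genes (C1qc and Apoe) and flow cell 2 called 2 of 5 (C1qb and Apoe). Without the filter 7 of 33 were called. Leaving out each mouse in turn gave from 0 of 15 tested genes (without control mouse 14) to 4 of 15 (without control mouse 9). The 4 included Ccl6, which did not pass the filter with all 6 mice. The genes tested differ between these settings, so the counts are not directly comparable. Without the filter, the 7 became 0 with DESeq2 and with the muscle covariate, 4 with flow cell 1, 2 with flow cell 2, 3 with the legacy fit and 0 to 5 when a mouse was left out (1 without control mouse 2, 5 without control mouse 9, 0 without control mouse 14, 2 without cold mouse 4, 3 without cold mouse 11 and 0 without cold mouse 15). The legacy fit, these fits without the filter and the refits of genes from other lists were chosen after seeing the data. The fold change of C1qb was -0.065 with flow cell 1 alone. That of Csf1r, 0.011 as reported, was -0.001 with DESeq2, -0.042 with protein-coding transcripts alone and between -0.317 and 0.269 when a mouse was left out. Called transcripts were 1 as reported, 2 without the filter and 1 to 2 when a mouse was left out, and transcript usage gave 0 throughout (without a filter, transcripts with at least 3 reads were kept). The cause of these shifts was not tested. No paired analysis was run because the labels name no pairing of cold and control mice. At 3 mice per group and these depths, 21 of the 33 genes could not be tested with the filter.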
